A study of Drosophila melanogaster with 3 samples.

Results

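FB, the foldback element, is a family of transposable elements (TEs), and 209 of the 1702 TE insertions called in the Drosophila melanogaster strain ORw1118 (Oregon-R w1118) were assigned to it. The FB calls were all rows of the call list that carried this family name, with no minimum of read support, and the other 1493 calls belonged to other families. The only strain was ORw1118, kept at 25°C with no treatment, and its whole genome was sequenced in 3 replicates, each from 100 adult females. The replicates were pooled before insertions were called with TIDAL, a split-read method, so each call has 1 value, and a TE carried by only some of the flies cannot be told apart from one with poor read support. Reads entered TIDAL in 2 ways, as paired reads treated as single-end (the list of 1702 calls) or as overlapping pairs merged and trimmed to 200 bp (a second list of 1487 calls, 171 of them FB). Values are from the single-end list unless merged reads are named, and positions are on Release 6 of the genome.

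Foldback elements have long inverted repeats at their ends, built from short sequences repeated in tandem, and single-stranded copies can fold back on themselves, which gave the family its name. Because the ends are inverted repeats, both ends of an inserted copy carry the same sequence towards the flanking DNA. FB elements move through DNA and are known from unstable mutations and rearrangements, classically at white (w), the gene of an ABC transporter for eye pigment precursors.

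FB calls rested on fewer reads than calls of other families. FB calls had a median of 19 supporting reads (interquartile range 8 to 37, highest 152), and calls of other families had a median of 41 (16 to 73, highest 197). Supporting reads are the split reads, counted after collapsing, that join TE and flanking sequence on either side of the insertion. Among the FB calls, 73 (34.9%, exact 95% binomial interval 28.5 to 41.8%) had at most 10 supporting reads, against 246 calls of other families (16.5%, 14.6 to 18.5%). Intervals here and below cover counting error only, and calls are loci of 1 strain and not replicates. Reference reads, the normalized reads across the site without the TE, had a median of 42.7 at FB calls (36.9 to 49.1) and 37.4 at calls of other families (30.6 to 45.3). Within bands of equal read support the medians lay closer together. At 4 to 10 supporting reads they were 46.8 reference reads for FB and 46.7 for other families, at 21 to 40 supporting reads 40.9 and 41.6, and at 81 or more 28.4 for FB and 30.6 for other families. Of 23 families with at least 20 calls, FB had the fourth lowest median of supporting reads, springer being lowest at 14.5 over 20 calls.

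The coverage ratio divides supporting reads by reference reads plus 1, and the study used a ratio of at least 3 to accept a TE. FB calls had a median ratio of 0.4 (0.2 to 0.9), and calls of other families had one of 1.1 (0.4 to 2.3). A ratio under 1 was found for 159 FB calls (76.1%, 69.7 to 81.7%) and for 711 calls of other families (47.6%, 45.1 to 50.2%). A ratio of at least 3 was reached by 16 of 209 FB calls (7.66%), where 16.4% of all calls of the list reached it and 263 of 1493 calls of other families did. With merged reads, 17 of 171 FB calls reached it, where 18.6% of all calls of that list did. The shares of single families with at least 20 calls ran from 0% for Doc to 35.4% for opus.

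**Figure D1:**
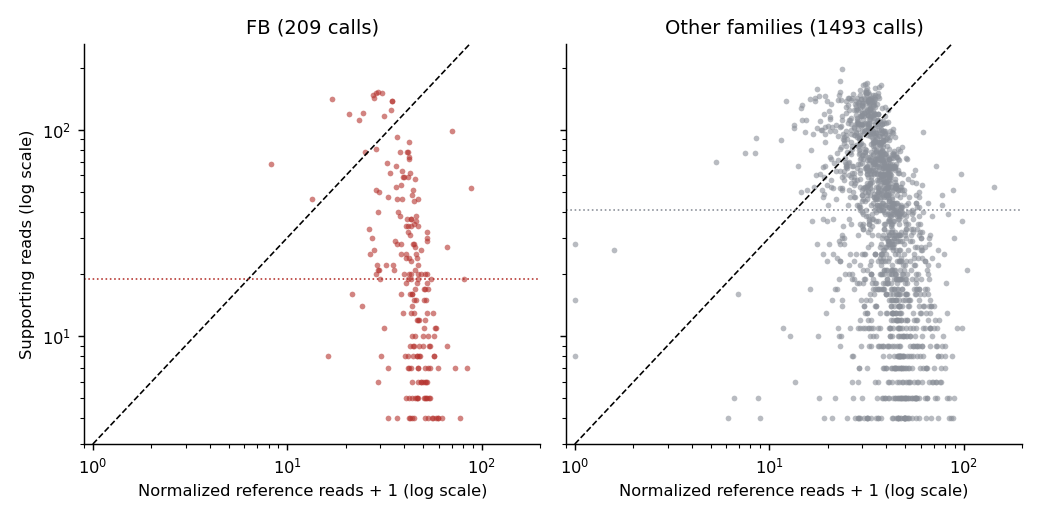
Supporting reads (vertical, log scale) against normalized reference reads plus 1 (horizontal, log scale) for the 209 FB calls (left) and the 1493 calls of other families (right), 1 point per call. The dashed line marks a coverage ratio of 3 and the dotted line the group's median of supporting reads, 19 for FB and 41 for other families, and 16 FB points lie on or above the dashed line.

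All 16 FB calls with a ratio of at least 3 also reached it with merged reads, 9 of them lay on X and 15 were in introns alone. Ratios are given here with an exact 95% Poisson interval of the supporting reads, the reference reads being taken as fixed. These intervals take reads as independent and can be too narrow, since both overlapping reads of a pair can count in the single-end list. On the autosomes, Pde11, which encodes a cyclic nucleotide phosphodiesterase, held an FB call at chr2L:18570404-18570639 with 111 supporting and 22.4 reference reads and a ratio of 4.7 (3.90 to 5.71). EDTP, the gene of an egg-derived tyrosine phosphatase, shared with CG18467 a call at chr2R:17441813-17442041 with 151 supporting and 27.5 reference reads and a ratio of 5.3 (4.49 to 6.21), and this was the only call of the 16 that touched an exon. On 3L, MYPT-75D, a targeting subunit of myosin phosphatase, and Mkp3, a MAP kinase phosphatase, held calls with 116 and 125 supporting reads and a ratio of 3.7 each. On 3R, cwo, a repressor of the circadian clock, had a call with 138 supporting reads and a ratio of 4.0 (3.37 to 4.74). The Golgi mannosidase gene alpha-Man-IIb had one with 147 reads and a ratio of 5.3 (4.48 to 6.24), and CG42342 had the one with the most supporting reads of all FB calls, 152, at a ratio of 5.2 (4.38 to 6.06). The 7 autosomal calls lay close together, with 111 to 152 supporting reads and ratios of 3.7 to 5.3.

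On X, CG42340 had a call at chrX:6514142-6514383 with 140 supporting and 15.9 reference reads and a ratio of 8.3 (6.97 to 9.78). Ptp10D, a receptor tyrosine phosphatase of axon guidance, had a call with 119 reads and a ratio of 5.7 (4.76 to 6.88). inaE, a diacylglycerol lipase gene of phototransduction, had one with 142 reads and a ratio of 5.1. X11Lbeta, an adaptor protein gene, held a call with 151 reads, and rg, which encodes an A-kinase anchor protein, shared with CG15465 a call with 120 reads, both at a ratio of 4.9. dnc, the cAMP phosphodiesterase gene known from learning mutants, had the lowest ratio of the 16, 3.1 (2.46 to 3.88), from 78 supporting and 24.1 reference reads. The next FB call below the limit was in ec, a gene of eye development, with 81 supporting and 27.6 reference reads and a ratio of 2.8. With merged reads the ec call had 38 supporting and 11.6 reference reads and a ratio of 3.0, and it was the FB call that reached the limit in that list alone.

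The remaining 3 calls on X lay in or near w, the gene whose w1118 allele gives the strain its name, and inside the much longer gene kirre, which encodes an adhesion protein of muscle founder cells and overlaps w on the opposite strand. The call inside an intron of w, at chrX:2793890-2793981, had 68 supporting reads and 7.2 reference reads and a ratio of 8.3 (6.44 to 10.5). A call at chrX:2802285-2802379, 5819 bp from w, had 46 supporting and 12.4 reference reads and a ratio of 3.4 (2.51 to 4.58). These were the lowest and the second lowest reference reads of all 209 FB calls, and they ranked 10 and 19 from the bottom among all 1702 calls. With merged reads the call in w had 43 supporting and 1.0 reference reads, and the second call had 26 and 1.5. Their ratios were 21.5 and 10.4, and at so few reference reads the added 1 makes up much of the divisor, so these ratios are not precise. A call on the other side of w, at chrX:2781149-2781368 and 9231 bp from it, had 138 supporting and 33.4 reference reads and a ratio of 4.0, and with merged reads 95 and 20.5 and a ratio of 4.4. Within 50 kb of w there were 5 calls of other families, and the nearest of them, a BS element at 16723 bp, had 74 supporting and 38.8 reference reads.

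FB calls of the merged list were found again without exception. An FB call of the other list overlapped by at least 1 bp for 171 of the 209 FB calls (81.8%, 75.9 to 86.8%), and a call of the same family overlapped for 1283 of the 1493 calls of other families (85.9%, 84.1 to 87.7%). The 38 FB calls of the single-end list alone had a median of 5 supporting reads (range 4 to 20), and 37 of them had at most 10. The 171 shared FB calls had a median of 22 (4 to 152). At 4 to 10 supporting reads, 36 of 73 FB calls (49.3%) and 99 of 246 calls of other families (40.2%) were in both lists, and at 11 to 20 reads 44 of 45 FB calls (97.8%) and 200 of 240 calls of other families (83.3%) were. Above 20 supporting reads every FB call was in both lists. The lowest support was 4 reads, seen for 15 FB calls, which included calls in Tl, the gene of the Toll receptor, and InR, the insulin receptor gene, both on 3R and both at a ratio of 0.1.

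FB calls lay in introns more than calls of any other family with at least 20 calls. By the annotation deposited with the calls, 177 FB calls (84.7%, 79.1 to 89.3%) were in introns alone, 20 (9.57%, 5.94 to 14.4%) touched an exon or UTR and 12 (5.74%, 3.00 to 9.81%) were intergenic. Of the calls of other families, 743 (49.8%, 47.2 to 52.3%) were in introns alone, 173 (11.6%) touched an exon or UTR and 577 (38.6%, 36.2 to 41.2%) were intergenic. The intervals for introns and for intergenic calls did not overlap between FB and the other families together, and for exons and UTRs the share of other families lay inside the FB interval. The next highest share in introns was that of S-element, 76.7% of 30 calls, and its intergenic share, 13.3%, was the next lowest. With 30 calls its shares are known less closely than those of FB, and whether the 2 families differ was not tested. The families with most calls after FB and roo were jockey, pogo, 412 and Doc, the last pair with 63 calls each, and with roo they had between 41.3% (jockey) and 57.1% (412) of their calls in introns alone. By RefSeq gene bodies, 95.7% of FB calls and 64.8% of calls of other families overlapped a gene, and gene bodies cover 69.5% of the 5 large chromosome arms.

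**Figure D2:**
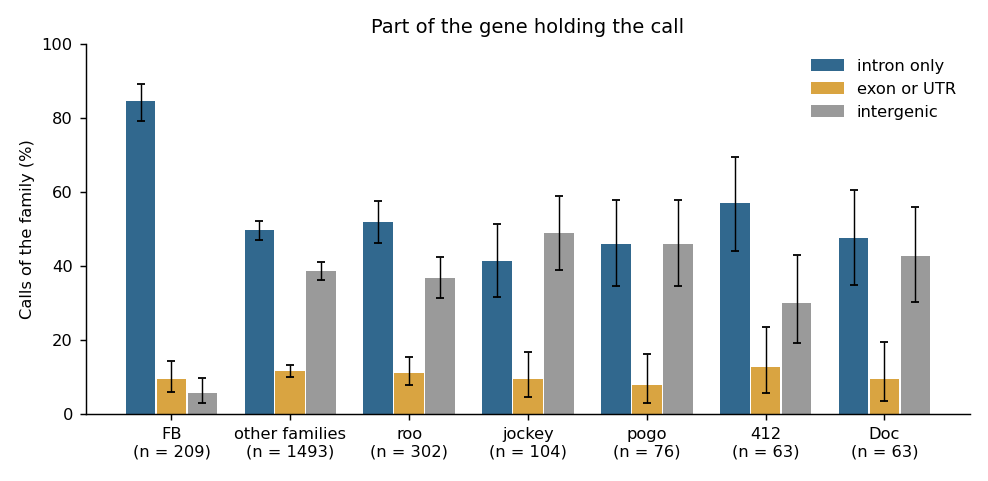
Share of calls (%) in introns alone, touching an exon or UTR, or intergenic, for FB, all other families and the 5 other families with most calls, with exact 95% binomial intervals as error bars. FB has 84.7% of its calls in introns alone and 5.74% intergenic, and other families together have 49.8% and 38.6%.

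The share of FB calls in introns was high at every level of read support. It was 86.3% of the FB calls with 4 to 10 supporting reads, 82.2% of those with 21 to 40 and 94.1% of the 17 with 81 or more, where 54.1%, 50% and 50.5% of the calls of other families in these bands were in introns. Intronic FB calls had a median of 19 supporting reads, those touching an exon or UTR 18 and intergenic ones 20.

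Within host genes, FB calls lay towards the 5′ end. For calls with 1 host gene, the place along the gene was measured from the 5′ end of the RefSeq gene span, with the strand given in the list. The 181 such FB calls had a median place of 20.2% of the gene's length (8.92 to 36.2%), and the 848 such calls of other families had one of 46.7% (23.9 to 72.9%). The first 25% of the gene held 113 FB calls (62.4%, 54.9 to 69.5%) and 225 calls of other families (26.5%, 23.6 to 29.6%). The last 25% held 6 FB calls (3.31%) and 197 calls of other families (23.2%). Calls with midpoints outside the gene span were counted with the end they lay beyond. These were 1 FB call, in Hr51 past the 3′ end, and 24 calls of other families. In base pairs, FB calls lay a median of 5154 bp from the 5′ end (2622 to 12156), and calls of other families 11742 bp (3824 to 30444). FB calls were not crowded at the 5′ end itself: 12 of the 181 FB calls lay within 1 kb of it, against 68 of the 848 calls of other families. Of the families with at least 10 such calls FB had the highest share in the first 25%, followed by springer and mdg1 at 50% of 12 and 22 calls.

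**Figure D3:**
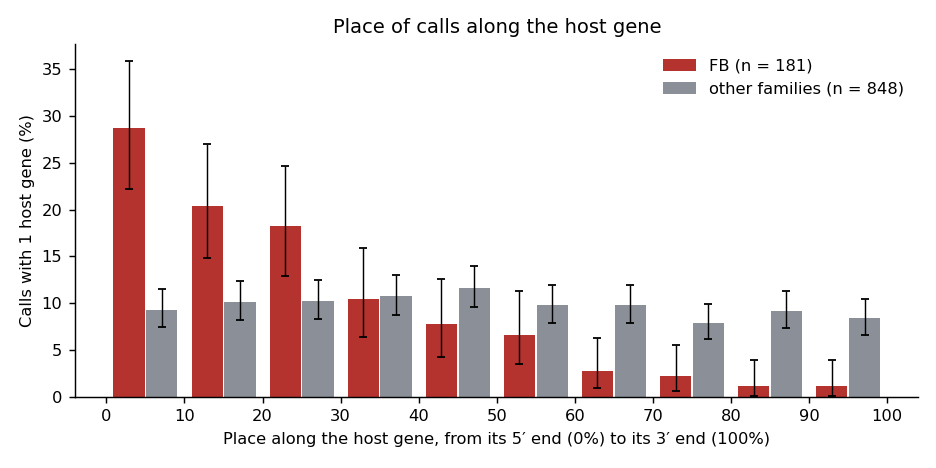
Place of calls along the host gene, in steps of 10% from the 5′ end (0%) to the 3′ end (100%), as the share (%) of the 181 FB calls and the 848 calls of other families with 1 host gene, with exact 95% binomial intervals. The first step holds 28.7% of the FB calls and 9.32% of the calls of other families, FB falls to 1.10% in the last step, and 1 FB call and 24 calls of other families outside the gene span are not drawn.

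The 5′ placement was seen in host genes of every length and on both strands. In host genes of 50 kb or more, 49 of 62 FB calls (79.0%, 66.8 to 88.3%) lay in the first 25%, against 85 of 315 calls of other families (27.0%, 22.2 to 32.2%). In host genes of 15 to 50 kb it was 45 of 82 FB calls (54.9%) against 84 of 303 (27.7%), and in those under 15 kb 19 of 37 FB calls (51.4%) against 56 of 230 (24.3%). For hosts on the plus strand the shares were 65.6% of 96 FB calls and 23.6% of 403 calls of other families, and for hosts on the minus strand 58.8% of 85 and 29.2% of 445. On X 67.3% of 49 FB calls and on the autosomal arms 60.6% of 132 lay in the first 25%, with intervals that overlapped. Examples in long genes were the calls in toc, a gene of a microtubule-associated protein of oogenesis, at 1.82% and 3.42% of its 76442 bp, in Fur1, a furin protease gene of 125628 bp, at 2.30%, 5.05% and 18.5%, and in Dys, the dystrophin gene of 136204 bp, at 3.78% and 5.71%. The call in dnc stood apart from these at 80.2% of the gene's 167328 bp. These examples were chosen after their values were seen. The RefSeq span starts at the most upstream start site, so a call may lie nearer to, or upstream of, another start site of the same gene.

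The 20 FB calls that touched an exon or UTR had about the read support of the others. Their supporting reads had a median of 18 and ranged from 5 to 151, and the call of EDTP and CG18467 was the 1 with a ratio of at least 3. The next highest were the call at the 3′ UTR of CG4686 or CG4562, with 78 reads and a ratio of 1.9, the call in the exon of CG14625, with 46 reads and a ratio of 1.3, and the call of Leash and Adk3, with 31 reads and a ratio of 0.7. CG7730 had an exonic call with 52 supporting reads, 87.1 reference reads and a ratio of 0.6. In brat, a gene of a translational repressor, a call in the 3′ UTR had 20 reads (ratio 0.4), and in debcl, a gene of the BCL-2 family, an exonic call had 20 reads (ratio 0.4). CG10011 had a call in its 5′ UTR with 21 reads (ratio 0.6), and CG14562 one in its 5′ UTR with 11 (ratio 0.2). The calls of vimar and CR44171 (22 reads), RhoGEF64C and CG15876 (18), CG3032 (18), CG32243 (17) and GstO2, a glutathione transferase gene (15), had ratios of 0.3 to 0.5. The remaining 6, in Hr51 (8 reads), CG2839 (7), CG15431, CG34177 and CG34178 (7), Nle (6), CG3808 (6) and CG10914 (5), had at most 8 supporting reads, and 4 of these 6 had no call in the merged list.

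FB calls stood close together more than those of any other family with at least 20 calls. Distances between calls of the same family were measured between interval midpoints. Another FB call lay within 10 kb of 40 of the 209 FB calls (19.1%, 14.0 to 25.1%), and a call of the same family lay within 10 kb of 44 of the 1493 calls of other families (2.95%, 2.15 to 3.94%). The next highest shares were 11.1% of 36 calls for 1360 (4 calls), 8.33% of 48 for opus and 6.90% of 29 for Transpac, and shares of so few calls are uncertain. A close neighbour of the same family is also more likely the more calls a family has, and only roo had more calls than FB. Among the other families with at least 50 calls the share was 5.30% of 302 for roo, 1.92% of 104 for jockey, 0% of 76 for pogo, 6.35% of 63 for 412 and 3.17% of 63 for Doc. The 40 FB calls formed 21 neighbouring pairs, a median of 2888 bp apart, and in 20 of the 21 pairs both calls shared a host gene. In 17 pairs both calls were also in the merged list. Calls in pairs had a median of 17.5 supporting reads and the other FB calls one of 19. Within a pair the better supported call had a median of 27 reads and the other one of 10. The calls of each pair were ordered by their reads, so the ordering itself gives a gap, and whether it is larger than between unpaired FB calls was not tested.

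The closest pair, with midpoints 391 bp apart, was in px, a gene of wing vein patterning, with 62 and 10 supporting reads. The px intervals were chr2R:22558528-22559075 and chr2R:22559153-22559232, 547 and 79 bp wide. Whether they mark 1 insertion or 2 was not tested. In Meltrin, which encodes an ADAM metalloprotease, a pair 464 bp apart had 27 and 12 reads. In dl, the gene of the NF-kappa-B protein Dorsal, 2 calls 609 bp apart had 35 and 30 reads and ratios of 0.8 and 1.1. In Ptp10D, a second call 6007 bp from the one with 119 reads had 9 reads and a ratio of 0.1. Support differed most in the Ptp10D and px pairs of these 4 and least in dl.

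The 197 FB calls inside genes named 183 host genes, and 26 of these held at least 2 FB calls. RhoU held 4, with 28, 6, 59 and 4 supporting reads. Fur1 held 3 with 7, 25 and 8 reads, cno, which encodes the junction protein Canoe, held 3 with 5, 16 and 10, and kirre held the 3 around w given above. Of the 22 genes with 2 FB calls, those on 3R were CG10011, CG11873, CG43427, Dys, Meltrin and pyd, and those on X were CG34449, CG42346, CG43759, CG5004, Pde9, Ptp10D, ct and fog, where CG42346 and fog shared the same calls. On 2L they were dl, for (a cGMP-dependent kinase gene) and toc, on 2R LRP1, fra (a netrin receptor gene) and px, and on 3L RhoGEF64C and siz. In 14 of the 26 genes no other family had a call, and of all 183 FB host genes 66 (36.1%) held a call of another family. Outside kirre and Ptp10D no ratio in these genes was above 1.8, the value of the higher call in fra and in px. FB host genes had a median length of 30068 bp (13688 to 56406), the host genes of other families one of 24706 bp (8034 to 51890), and protein-coding genes in RefSeq one of 2161 bp.

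FB calls were denser on X than on the autosomes, and calls of all other families combined were not. FB had 57 calls on X (27.3%, 21.4 to 33.8%), which makes up 17.8% of the span of the 5 large arms, and other families had 220 there (14.7%, 13.0 to 16.6%). FB had 2.42 calls per Mb on X (exact 95% Poisson interval 1.83 to 3.14) and 1.40 on the autosomal arms 2L, 2R, 3L and 3R (1.18 to 1.64). Other families had 9.35 calls per Mb on X (8.15 to 10.7) and 11.5 on these arms (10.9 to 12.2). On single arms FB had 58 calls on 3R, 39 on 3L, 30 on 2L and 25 on 2R. The densities on 3R, 1.81 per Mb (1.37 to 2.34), and 3L, 1.39 (0.990 to 1.90), had intervals that overlapped with that on X, and the lowest density, 0.990 on 2R (0.641 to 1.46), did not. No FB call lay on chromosome 4, where other families had 16 calls, and 0 calls allow up to 2.90 FB calls per Mb there. The flies were females, which carry no Y, so the 0 FB calls listed on Y, against 4 of other families, are no result. Single families differed, and of the other 22 families with at least 20 calls, 9 had a share on X above its 17.8% of the span. Transpac had a higher share than FB, 34.5% of 29 calls, and 297 had 24.4% of 41, 412 had 22.2% of 63 and opus had 20.8% of 48. For roo it was 22.2% of 302 calls (17.6 to 27.3%), an interval that overlapped with that of FB, with 2.85 calls per Mb on X and between 1.79 and 2.46 on the large autosomal arms.

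**Figure D4:**
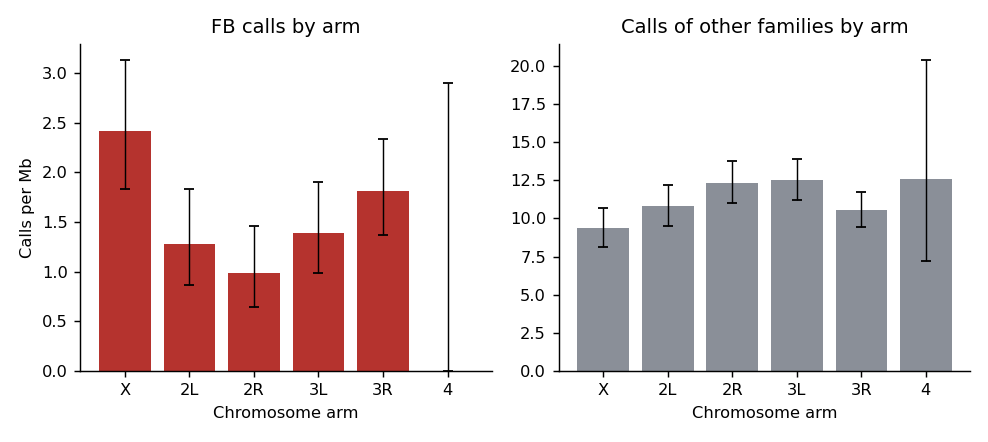
Calls per Mb of chromosome arm for FB (left) and other families (right), with exact 95% Poisson intervals as error bars and a separate vertical scale in each panel. FB has 2.42 calls per Mb on X and between 0.990 and 1.81 on the large autosomal arms, and other families have 9.35 on X.

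On X, the medians of read support were also higher in both groups. FB calls on X had a median of 21 supporting reads (8 to 46) and those on the autosomal arms one of 16.5 (8 to 34), and for other families the medians were 70.5 on X and 38 on the autosomal arms. A ratio of at least 3 was reached by 9 of 57 FB calls on X (15.8%, 7.48 to 27.9%) and 7 of 152 on the autosomal arms (4.61%, 1.87 to 9.26%), and by 92 of 220 calls of other families on X (41.8%) and 168 of 1253 on the autosomal arms (13.4%). Of these 9 FB calls on X, 3 were the kirre calls in or near w, within a single stretch of 21074 bp, and the interval takes them as independent. The share of calls on X was higher for FB in each band of read support: 23.3% of FB calls and 10.6% of calls of other families at 4 to 10 reads, 28.9% and 10.3% at 21 to 40 reads, and 41.2% and 29.6% at 81 or more. On X 53 of the 57 FB calls (93.0%, 83.0 to 98.1%) were in introns alone, and on the autosomal arms 124 of 152 (81.6%, 74.5 to 87.4%). For other families the share in introns was also higher on X, 57.3% of 220 calls (50.4 to 63.9%) against 48.6% of 1253 (45.8 to 51.4%).

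Most FB calls had about equal reads on both sides. The first side's fraction of the supporting reads had a median of 0.50 (0.40 to 0.57) for FB and of 0.50 (0.42 to 0.58) for other families. In a two-sided exact binomial test of each call against equal sides, with Benjamini-Hochberg adjustment over all 1702 calls, 9 of 209 FB calls had an adjusted p under 0.05 (4.31%, 1.99 to 8.02%), where 7.64% of all calls did, with 121 of them in other families. The test takes reads as independent, but in the single-end list both overlapping reads of a pair can count, so it can call too many. Without adjustment 25 FB calls and 262 calls of other families had a p under 0.05. Among calls with 41 to 80 reads, 4 of 29 FB calls (13.8%) and 52 of 434 calls of other families (12.0%) were called. In the bands on either side the FB share was the lower, with 2 of 45 FB calls (4.44%) and 25 of 252 calls of other families (9.92%) at 21 to 40 reads, and 1 of 17 FB calls (5.88%) and 36 of 321 calls of other families (11.2%) at 81 or more. At 11 to 20 reads the FB share was the higher, with 2 of 45 FB calls (4.44%) and 8 of 240 calls of other families (3.33%). At 4 to 10 reads no call of either group was called, and with reads on both sides of every call none could be. Even an FB call with 1 and 10 reads had an adjusted p of 0.118 in the exact binomial test. This band holds 34.9% of FB calls and 16.5% of calls of other families, so the shares over all calls are not at like depth. With merged reads, 4 of 171 FB calls were called, where 3.36% of all calls of that list were.

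The largest inequality was in dnc, with 4 reads on the first and 74 on the second side (adjusted p = 5.65e-15 by the exact binomial test), and with merged reads 6 and 53. By the same exact test, px had 56 and 6 reads on its sides (adjusted p = 5.62e-09), alpha-Est9, a carboxylesterase gene, had 6 and 53 (adjusted p = 2.49e-08) and CG3764 had 70 and 17 (adjusted p = 7.11e-07). These 3 and dnc were the calls found unequal with merged reads too. The other 5 were in the septin gene Sep4 with 39 and 8 reads, Pde9 with 29 and 5, fog and CG42346 with 2 and 18, dl with 8 and 27, and at an intergenic site at chr3R:1972255-1972342 with 1 and 18. The unequal sides pointed both ways, with more reads on the first side in 4 of the 9 and on the second side in 5. dnc was the only call of the 9 with a ratio of at least 3, and the other 15 calls above that ratio had between 38.7% (Pde11) and 65.2% (the kirre call at chrX:2802285-2802379) of their reads on the first side.

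**Figure D5:**
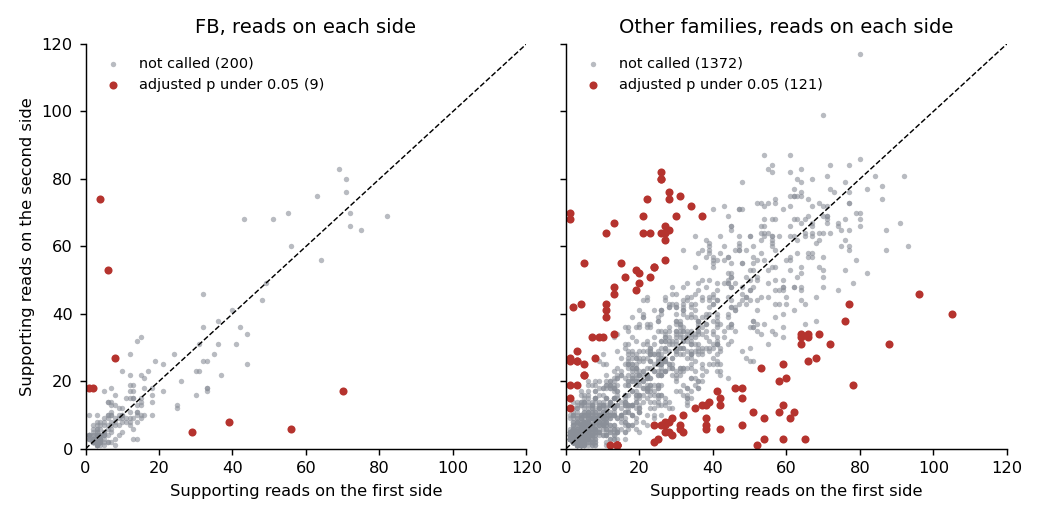
Supporting reads on the first side (horizontal) and second side (vertical) of each call, for FB (left) and other families (right), with the dashed line at equal sides. Red points had an adjusted p under 0.05 in the exact binomial test, 9 of 209 for FB, with the dnc call at 4 and 74 reads, and 121 of 1493 for other families.

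Both sides of FB calls matched the same end of the element. The position of the junction on the FB sequence had a median of 21 on the first side (16 to 36) and 22 on the second (14 to 35), and on both sides it lay within the first 100 bp of the sequence in 197 of 209 FB calls (94.3%, 90.2 to 97.0%) and in 61 of 1493 calls of other families (4.09%, 3.14 to 5.22%). The positions of the sides were within 100 bp of each other in 206 FB calls (98.6%), and in 339 calls of other families (22.7%). In roo, which has direct repeats at its ends, it was 1.99%, and in Doc and jockey, which have no terminal repeats, 88.9% and 61.5%. In Doc and jockey the distance between the 2 positions mostly equalled the interval on the chromosome within 10 bp. This held for 92.1% of Doc, 60.6% of jockey and 6.22% of FB calls. Among families that, like FB, move as DNA and end in inverted repeats, the share with positions within 100 bp was 57.7% in hopper, 56.7% in S-element, 36.1% in 1360, 5.13% in hobo and 2.63% in pogo. Positions beyond 300 bp were seen in 3 FB calls, with 941 and 788 in Meltrin (27 reads), 669 and 849 at the intergenic site on 3R (19 reads) and 321 and 773 at an intergenic site at chr2L:23034036-23034140 (69 reads, ratio 2.1).

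A smaller group of FB calls had narrow intervals between the sides. The interval was under 120 bp, a limit chosen after the widths were seen, in 20 of 209 FB calls (9.57%), and in 327 of 1493 calls of other families (21.9%). For 13 of these 20 FB calls the distance between the 2 positions on FB equalled the interval on the chromosome within 10 bp. This equality held for 0 of the 189 wider FB calls, but that count is no result. In 206 of 209 FB calls the positions were within 100 bp of each other, too close to equal a wider interval. Of the narrow calls of other families the equality held for 247 of 327, and of their wider ones for 55 of 1166. The narrow FB calls had a median of 11.5 supporting and 52.1 reference reads, and the wider ones 19 and 42.6. The calls in w (positions 14 and 105, interval 91 bp) and at chrX:2802285-2802379 (99 and 5, interval 94 bp) were among the 13, and both Dys calls, with 34 and 30 reads, were too. No other call of the 20 had a ratio of at least 3. The w call and the call at chrX:2802285-2802379 formed a neighbouring pair within 10 kb. So did the Dys calls, at positions 6 and 103, and 104 and 9. The px call with 10 reads and the Meltrin call with 12 reads, each from a pair, were also among the 13. Whether such pairs are separate insertions was not tested.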

How the data were processed

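TE calls of ORw1118 females were analysed, from 3 replicates that the authors pooled, filtered with Trim Galore and called with TIDAL. Counts of collapsed supporting reads, in total and per side, were deposited without normalization. Reference reads are a signal that the authors normalized with TIDAL in a way not given in the sources used here. The ratio was deposited by the authors and equals supporting reads over reference reads plus 1 within 0.05. The fraction of reads on the first side and the mean BLAT score (not used in the text) were deposited by the authors, as were the gene part and gene names.

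FB calls were the rows of that family. The members, lists and limits were chosen with earlier results of these data known. Shares have exact (Clopper-Pearson) and densities Poisson 95% intervals. The FB calls hold 6326 supporting reads and the other calls 74560. With 1 pooled value per call, no test between groups of samples was possible, and differences between FB and other families are given as counts, medians and intervals with no p. The side test (binomial, Benjamini-Hochberg, adjusted p under 0.05) ran over all calls of a list. On simulated data with the depths of the 1702 calls and all reads independent, it found 98.7% of calls with at least 20 reads and 0.1 of reads on the first side, and 73.8% with 0.25. Gene spans came from RefSeq Release 6, and 1198 of 1199 gene names given for calls had a span over the call. Arm lengths run to the end of the last gene. Named were FB calls with a ratio of at least 3 in both lists, in exons or UTRs, with unequal sides, with the most or fewest reads or within 50 kb of w, genes with at least 2 FB calls, and the 4 other families with most calls (5 because of a tie). Genes and families named outside this rule are ec, Tl and InR, springer, opus, S-element, mdg1, Transpac, 297, 1360, hopper, hobo and BS, named after their values were seen. Alternatives tried were other ratio minimums, read minimums, adjustments, overlaps and distances, merged reads, calls in both lists and RefSeq gene bodies. Python 3.11.15, scipy 1.17.1 and pandas 2.3.3 were used.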

Additional observations from a re-analysis of the deposited data

How the results depend on the processing

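Of 36 alternatives to 9 results on FB calls, 23 left the value within its 95% interval or, for counts, within 1.5 times. With a ratio minimum of 5 in place of 3, 7 FB calls remained above it. The median of supporting reads was 12 with merged reads, 22 for calls in both lists and 28 for calls with at least 10 reads, and the median of reference reads was 25.6 with merged reads. Unequal sides were called for 5 FB calls with Bonferroni adjustment and 4 with merged reads. FB calls with another within 10 kb numbered 26 of the 141 with at least 10 reads, beside 40 of all 209. That alternative was chosen after seeing the data. Of all 209 FB calls, 66 and 85 had another within 20 kb and 50 kb. Among the 16 FB calls with a ratio of at least 3, 100% were inside genes and 56.2% on X (29.9 to 80.2%), and of the 263 calls of other families at that ratio 57.4% were inside genes and 35.0% on X (29.2 to 41.1%, inside the FB interval). The share in the first 25% of the host gene, a result added after seeing the data with all its alternatives, was 71.4% for calls with at least 20 reads and 67.1% with merged reads. No replicate could be left out and no paired analysis was possible because the replicates were pooled before calling. Depth limits calls with few reads most: the side test could call none with 4 to 10 reads in either group.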

Other observations

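FB calls and calls of other families shared host genes in part. Of the 183 FB host genes, 66 (36.1%) also held a call of another family, which is 9.03% of the 731 host genes of other families, and 24 of the 183 (13.1%) held a roo call. The nearest call of another family lay a median of 30576 bp from an FB call (13951 to 60612 bp), and the nearest call of a family other than roo lay a median of 31262 bp from a roo call (11591 to 71381 bp). Within 10 kb of a call of another family were 41 of 209 FB calls (19.6%) and 68 of 302 roo calls (22.5%). FB calls stood close to each other but about as far from other families as roo calls did.

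FB calls in both lists had fewer supporting reads with merged reads, a median of 56.5% of their single-end number, and calls of other families had 60.2%. The coverage ratio of the 171 shared FB calls was higher with merged reads in 38, equal in 53 and lower in 80.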
